A study of Drosophila melanogaster with 4 samples.

Results

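Tight runs of neighbouring marked regions were described in the adult head of the fly *Drosophila melanogaster*, from maps of trimethylated lysine 79 of histone H3 (H3K79me3). A tight run was taken as 3 or more consecutive regions of enrichment, here called clusters, with every gap under 1000 bases and no cluster wider than 20 kb. The rule found 452 runs with 1600 clusters, of 6833 clusters on the 5 large chromosome arms and 6943 in all. They make up 23.4% of the clusters on these arms (95% Wilson interval 22.4 to 24.4) and 18.9% of the bases covered there. The interval covers counting error only, and the clusters of a run are not independent. The rule read positions and widths in the authors' combined list, so the number, spacing and width of the members are descriptions of the choice and carry no test.

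The data come from chromatin immunoprecipitation and sequencing of head nuclei from wild-type Oregon-R flies at the stage labelled mixed adult, with 2 ChIP libraries made with the Abcam ab2621 antibody (lot 1) and 2 input libraries as their background. Heads were sieved from caged adults, so each library pools many animals and all cell types of the head, and fewer marked cells cannot be told apart from less of the mark per cell. The values are 3 lists of clusters on FlyBase release 5, for the combined replicate set, replicate 1 and replicate 2. For each cluster the lists give its borders and a score by the authors. What the score measures is not stated in the labels or headers. The lists give no read counts, so the sequencing depth is unknown. They name no genes, so the labelled tissue could not be checked against marker genes. Nothing in the labels says whether both libraries go back to separate fly batches, and the spread between them may be technical. The combined list stands for the same 2 libraries, so agreement between the lists is not independent support.

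Lysine 79 lies on the surface of the nucleosome core and not in the histone tail. Its methylation is set by the Dot1 enzyme, called grappa in flies, and is commonly found over the bodies of transcribed genes in open chromatin. Fly genes often lie close to one another, and the gene bodies of an arm are often separated by little sequence.

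Most runs were short chains. Of the 452 runs, 294 held 3 clusters, 104 held 4, 35 held 5, 12 held 6, 4 held 7 and 3 held 9. A run spanned a median of 16152.5 bases (interquartile range 10878.2 to 23224), from 4138 to 56559 bases. Clusters of the combined list filled a median of 94.2% of the span, which the limit on gaps sets in part. In that list a run was thus a nearly continuous stretch of clusters with narrow breaks. The 1148 gaps inside runs had a median of 356 bases (interquartile range 157.5 to 633.25). Of these gaps, 192 (16.7%) were under 100 bases, 731 (63.7%) were under 500 bases, and 2 were of 0 bases, where a cluster began on the base after the last one ended. All gaps together took up 462 kb of the 8.18 Mb that the runs spanned.

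The limits of the rule cut through continuous distributions. The longest gap in a run was 999 bases and the shortest that ended one was 1005 bases. The combined list had 130 gaps in the last 100 bases below the limit, 67 of them inside runs, and 141 gaps in the 100 bases from the limit on. The widest member measured 19999 bases and the narrowest cluster over the width limit 20139 bases. Run ends were also sorted by what lay beyond them. Of 904 run ends, 20 (2.21%) lay within 1000 bases of a cluster wider than 20 kb. Another 883 faced a longer gap and 1 had no further cluster on its arm. Clusters wider than 20 kb made up only 4.39% of the clusters on the large arms, and 32.8% of all gaps there were under 1000 bases. The low share of such ends is therefore not read as a trait of runs. Beyond a longer gap the next cluster lay a median of 4069 bases away.

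The first question was whether the gaps were kept in the lists of the single libraries. A gap was counted as kept when library clusters overlapped both of its neighbours and none overlapped both at once, and as bridged when 1 library cluster did. Of the 1148 gaps, replicate 1 kept 587 (51.1%) and replicate 2 kept 608 (53.0%), which averages 52.0% ± 1.3 (SD, n = 2). Both libraries kept 488 gaps (42.5%, interval 39.7 to 45.4), 1 library kept a further 219 (19.1%), and neither library kept 441 (38.4%). Intervals here and below cover counting error only, and neighbouring gaps are not independent.

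Bridging was rare, and a gap that was not kept had mostly lost a neighbour. Replicate 1 bridged 32 gaps (2.79%) and replicate 2 bridged 11 (0.958%), and no gap was bridged in both. In replicate 1, 391 gaps (34.1%) had a called cluster on 1 side only and 138 (12.02%) on neither side. In replicate 2 these numbers were 393 (34.2%) and 136 (11.8%). Where both neighbours were called in both libraries, 488 of 503 gaps were kept in both (97.0%, interval 95.1 to 98.2). For the gaps of pairs, meaning groups of only 2 close narrow clusters, the corresponding number was 425 of 442 (96.2%, interval 93.9 to 97.6). Of all 880 pair gaps, 48.3% were kept in both libraries. Pair gaps were bridged in at least 1 library in 3.41% of cases, against 3.75% for gaps inside runs. They had a called cluster on 1 side only in 31.0% of cases in replicate 1 and 29.7% in replicate 2, so lost neighbours were not particular to runs.

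The missing neighbours were narrow and low in score. In replicate 1 the uncalled neighbour had a median width of 1547 bases in the combined list, against 4554 bases for the called one across the same gap. In replicate 2 the medians were 1498 and 4347 bases. The uncalled neighbour had the lower combined score across 90.3% of such gaps in replicate 1 and 86.0% in replicate 2.

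Bridged gaps were the shortest ones. Of the 98 gaps under 50 bases, 25 (25.5%) were bridged in at least 1 library. The same held for 6 of 94 gaps of 50 to 99 bases, 9 of 171 gaps of 100 to 199 bases and 2 of 269 gaps of 200 to 399 bases. Of the gaps from 400 bases on, 1 was bridged, in the longest bin. The share kept in both libraries was between 35.7% and 43.6% in the bins under 400 bases and between 44.0% and 51.7% in the bins from 400 bases on.

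**Figure D1:**
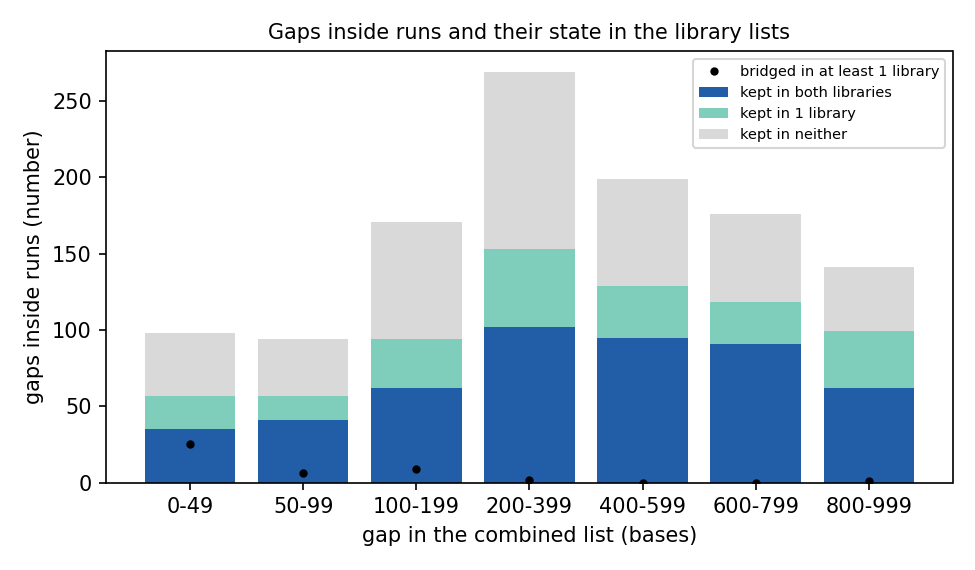
Number of gaps inside runs by gap length in the combined list, in bases, where stacked bars give gaps kept in both libraries, in 1 library or in neither, and black points give gaps bridged by a cluster of at least 1 library. Bridged gaps number 25 of 98 in the shortest bin and 9 or fewer in each of the others.

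Gaps kept in both libraries were wider there than in the combined list. These 488 gaps had medians of 886 bases (replicate 1) and 865.5 bases (replicate 2), against 405.5 bases in the combined list. The library gap was the longer one for 466 of them (95.5%) in replicate 1 and 471 (96.5%) in replicate 2. Both edges had moved outward, by medians of 127 and 136 bases on the left and right in replicate 1 and 117 and 130.5 bases in replicate 2. Only 277 of the gaps stayed under 1000 bases in replicate 1 and 275 in replicate 2, and 211 did so in both, which is 18.4% of all gaps inside runs.

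The libraries differed in the length of a shared gap by a median of 249 bases and in the position of its centre by a median of 118 bases. Across the 488 gaps, Spearman's rho between the libraries was 0.61. These gaps were chosen on both lists and share the antibody and the caller, so rho is only a description. Library gaps ranged from 17 to 9464 bases in replicate 1 and from 9 to 7616 bases in replicate 2.

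**Figure D2:**
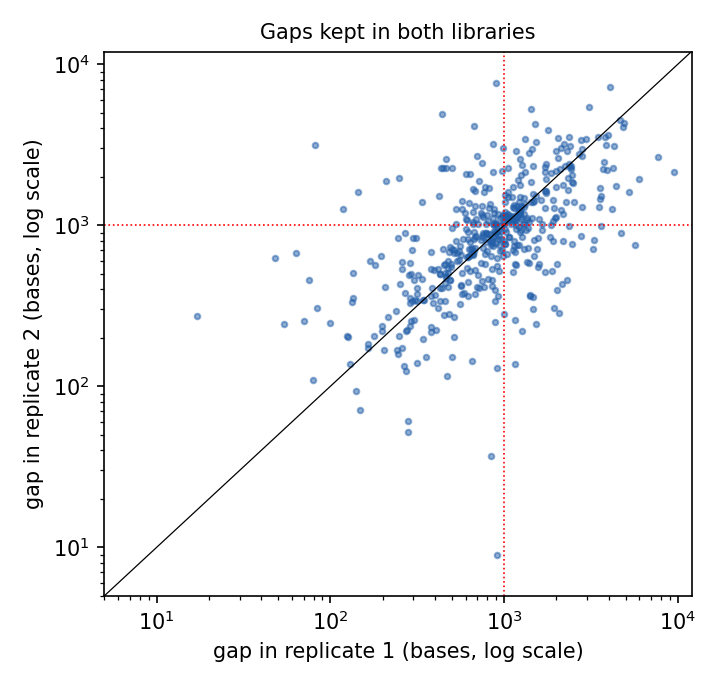
Length of each of the 488 gaps kept in both libraries, in bases on log axes, with replicate 1 across and replicate 2 up; each point is a gap, the black line marks equal lengths and red dotted lines mark 1000 bases. Of the points, 211 lie under 1000 bases on both axes.

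The members were then followed into the library lists. Of the 1600 members, replicate 1 had a cluster over 1135 (70.9%) and replicate 2 over 1143 (71.4%), which averages 71.2% ± 0.35 (SD, n = 2). Both libraries called 1003 members (62.7%, interval 60.3 to 65.0), 1 library called 272 (17.0%) and neither called 325 (20.3%). Among the 4933 narrow clusters outside runs, both libraries called 64.6% (interval 63.3 to 65.9), 1 called 13.7% and neither called 21.7%. Members and other narrow clusters thus had overlapping intervals for calls in both libraries. For calls in 1 library the intervals did not overlap, with 15.2 to 18.9 for members and 12.8 to 14.7 for the others. No test of these differences was made.

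Calls followed width and score within the runs, as they did outside them. Members called in both libraries measured 5456 bases at the median and scored 0.752. Those called in 1 library measured 2017.5 bases with a score of 0.407, and those called in neither measured 1314 bases with a score of 0.396. Of the 325 members called in neither library, 293 were narrower than 2000 bases, against 26 of the 1003 called in both. The median of 1314 bases for members called in neither lay close to the width floor of the replicates, 1301 bases. How far that floor sets the share of members called was not tested. Outside runs, narrow clusters showed the same order, with median widths of 5097 bases where both libraries called them, 1944 bases where 1 did and 1324.5 bases where neither did. There, 972 of the 1068 called in neither library and 99 of the 3188 called in both were narrower than 2000 bases. Where a member was called, library clusters covered a median of 89.4% of it in replicate 1 and 90.2% in replicate 2. For called narrow clusters outside runs these medians were 92.5% and 92.4%. Over all members, called or not, library clusters covered 74.6% of the bases in replicate 1 and 76.0% in replicate 2. For narrow clusters outside runs these shares were 77.9% and 79.8%.

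Runs mixed such clusters. All members were called in both libraries in 138 of the 452 runs (30.5%), some but not all in 268 (59.3%), and none in 46 (10.2%). No like count was made for neighbouring clusters outside runs, where both libraries called 64.6% of the narrow clusters. At least 3 members were called in both libraries in 197 runs (43.6%), and in 10 runs no member was called in either. Every gap was kept in both libraries in 124 runs (27.4%), some gaps in 148 (32.7%) and no gap in 180 (39.8%).

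Scores in runs leaned to the lower end of the combined list. The median member stood at the 43.7 percentile of the clusters on the large arms, against 49.3 for narrow clusters outside runs, a difference of -5.58 points. In the lists of the libraries, where the same rule was applied afresh, the median member stood at the 47.7 ± 0.048 percentile and narrow clusters outside runs at 49.0 ± 0.052 (SD, n = 2). The direction turned when clusters under the combined list's median score were left out, where runs found anew held 313 clusters and stood 6.48 points above the other narrow clusters. Of the 1600 members, 456 (28.5%) lay in the lowest quartile of scores and 316 (19.8%) in the highest, against 25.2% and 24.5% of the 3173 narrow clusters with no close narrow neighbour. The median width was 3380.5 bases for members and 3265 bases for narrow clusters outside runs. The score comes from the list that chose the members, so these values have no test.

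In the higher score classes nearly every narrow cluster was called in both libraries, in runs or not. Between percentiles 50 and 75 these were 370 of 378 members (97.9%), against 97.0% of pair clusters and 95.7% of single narrow clusters. Above percentile 75 they were all 316 members, against 99.8% and 99.0%. Between percentiles 25 and 50 both libraries called 58.0% of 450 members, against 54.1% of 449 pair clusters and 45.2% of 808 single narrow clusters. Median widths there were 2956 bases for members, 2734 bases for pair clusters and 2269.5 bases for single narrow clusters. In the lowest class the shares were 12.3% of 456 members, 16.2% of 452 pair clusters and 17.4% of 800 single narrow clusters.

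**Figure D3:**
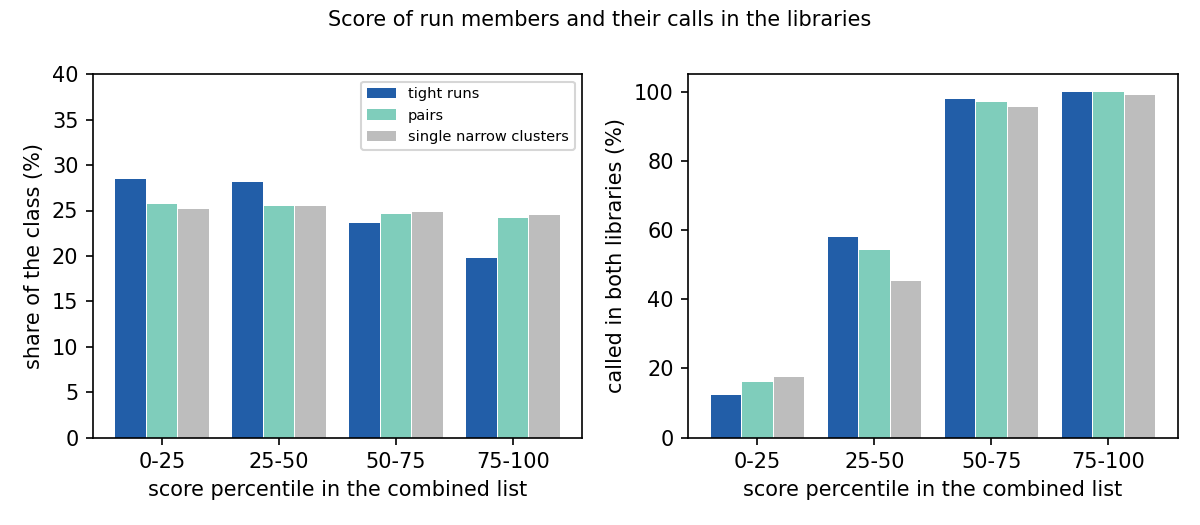
Left, share of each class of cluster, in percent, that falls in each range of score percentile of the combined list, and right, share of these clusters called in both libraries, in percent; colours mark clusters in tight runs, in pairs and single narrow clusters. Run members fill 28.5% of their class in the lowest range and 19.8% in the highest.

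Members of 1 run differed in score and width, but no like range was computed for clusters outside runs. The score percentile of the members of 1 run ranged over a median of 38.3 points (interquartile range 21.3 to 60.0), and the widest member was a median of 3.66 times as wide as the narrowest. A member above percentile 75 and another below percentile 25 stood together in 80 runs. All members lay below percentile 50 in 122 runs and above it in 72. Across the 1148 neighbours in runs, Spearman's rho of the score percentiles was 0.33. It was 0.30 over 880 pairs and 0.16 over 4226 narrow neighbours at 1000 bases or more. These are descriptions across clusters that share a list and a stretch of the arm.

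End and inner members were then set side by side, with no test. The 904 end members had a median width of 3509 bases, a median score percentile of 46.4 and calls in both libraries for 64.9%. The 696 inner members had 3282.5 bases, 40.7 and 59.8%. Longer runs give more inner members, so place in the run is mixed with run size. Both libraries called between 63.5% and 64.0% of the members in runs of 3, 4 and 5. In runs of 6, 7 and 9 they called 50.0%, 57.1% and 51.9%. In the 294 runs of 3, the middle cluster had the highest score in 84 and the lowest in 98. It was the widest in 97 and the narrowest in 86. An even split over the 3 places would give counts near these, so they are not read as a pattern by place.

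The longest chains differed in how much of them the libraries held. The run with the most clusters that were all called lay on 3R, from 1405868 to 1452173, with 7 clusters over 46.3 kb. Its 6 gaps of 373 to 929 bases were all kept in both libraries, and each library had 7 clusters there. The first cluster, of 14663 bases, scored 1.498 in the combined list, 1.57 in replicate 1 and 1.51 in replicate 2. The narrowest, of 1992 bases, scored 0.364 in the combined list, 0.494 in replicate 1 and 0.495 in replicate 2. The next one, of 8482 bases, scored 1.26, 1.36 and 1.26 in the same lists. All 3 lists thus showed a narrow cluster of low score between clusters of higher score. The gap after the narrow cluster measured 1236 bases in replicate 1 and 1177 bases in replicate 2, against 929 bases in the combined list.

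A chain of 9 clusters on 2L, from 6882302 to 6919300, changed along its length. Its last 3 clusters scored 1.41, 0.962 and 1.37 in the combined list and were covered to between 94.7% and 99.8% in both libraries. Their gaps of 92 and 56 bases measured 403 and 130 bases in replicate 1 and 224 and 138 bases in replicate 2. A pair of neighbours further left, of 1720 and 1650 bases with scores of 0.389 and 0.358, were called in neither library. The widest cluster, of 9177 bases, was filled to 40.6% by clusters of replicate 1 and to 52.6% by those of replicate 2, and the gap after it grew to 5961 bases in replicate 1 and 1944 bases in replicate 2, against 100 bases in the combined list. The right end of this run was thus filled nearly completely in all lists, while its left part was filled in pieces that differed between the libraries.

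On 3R, from 18755969 to 18779410, 9 clusters over 23.4 kb had scores of 0.359 to 0.497. Both libraries called 3 of them and neither called the other 6, and none of the 8 gaps was kept in both libraries. Library clusters covered 23.8% of the bases of its members in replicate 1 and 22.3% in replicate 2. The chain with the most clusters on 3L also kept no gap in both libraries, but more of it was covered. It held 7 clusters from 6445262 to 6469335, with scores of 0.360 to 0.628. Both libraries called 2 of them and neither called 3, and none of its 6 gaps was kept in both. Replicate 2 alone called its first 2 members and kept the gap between them, at 361 bases. Library clusters covered 36.5% of its member bases in replicate 1 and 45.0% in replicate 2.

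On X the longest chain held 9 clusters, from 10187601 to 10223755. Both libraries called 5 of them and kept 2 of its 8 gaps, those around its eighth cluster, which scored 0.824 in the combined list, 0.951 in replicate 1 and 0.832 in replicate 2. A second X chain, from 21107152 to 21152051, held 7 clusters, of which 5 were called in both libraries. Its longest combined gap measured 4070 bases in replicate 1 and 7186 bases in replicate 2, against 596 bases in the combined list. Outside 2R, a pair of chains of 5 clusters with every gap kept in both libraries spanned the most sequence among chains of their size and kind. On 2L, from 6042774 to 6099332, the gaps of 52 to 494 bases measured 416 to 2247 bases in replicate 1 and 308 to 2349 bases in replicate 2. On 3R, from 16910305 to 16966336, all scores lay between 1.21 and 1.31, and member bases were covered to 97.9% in replicate 1 and 97.1% in replicate 2.

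**Figure D4:**
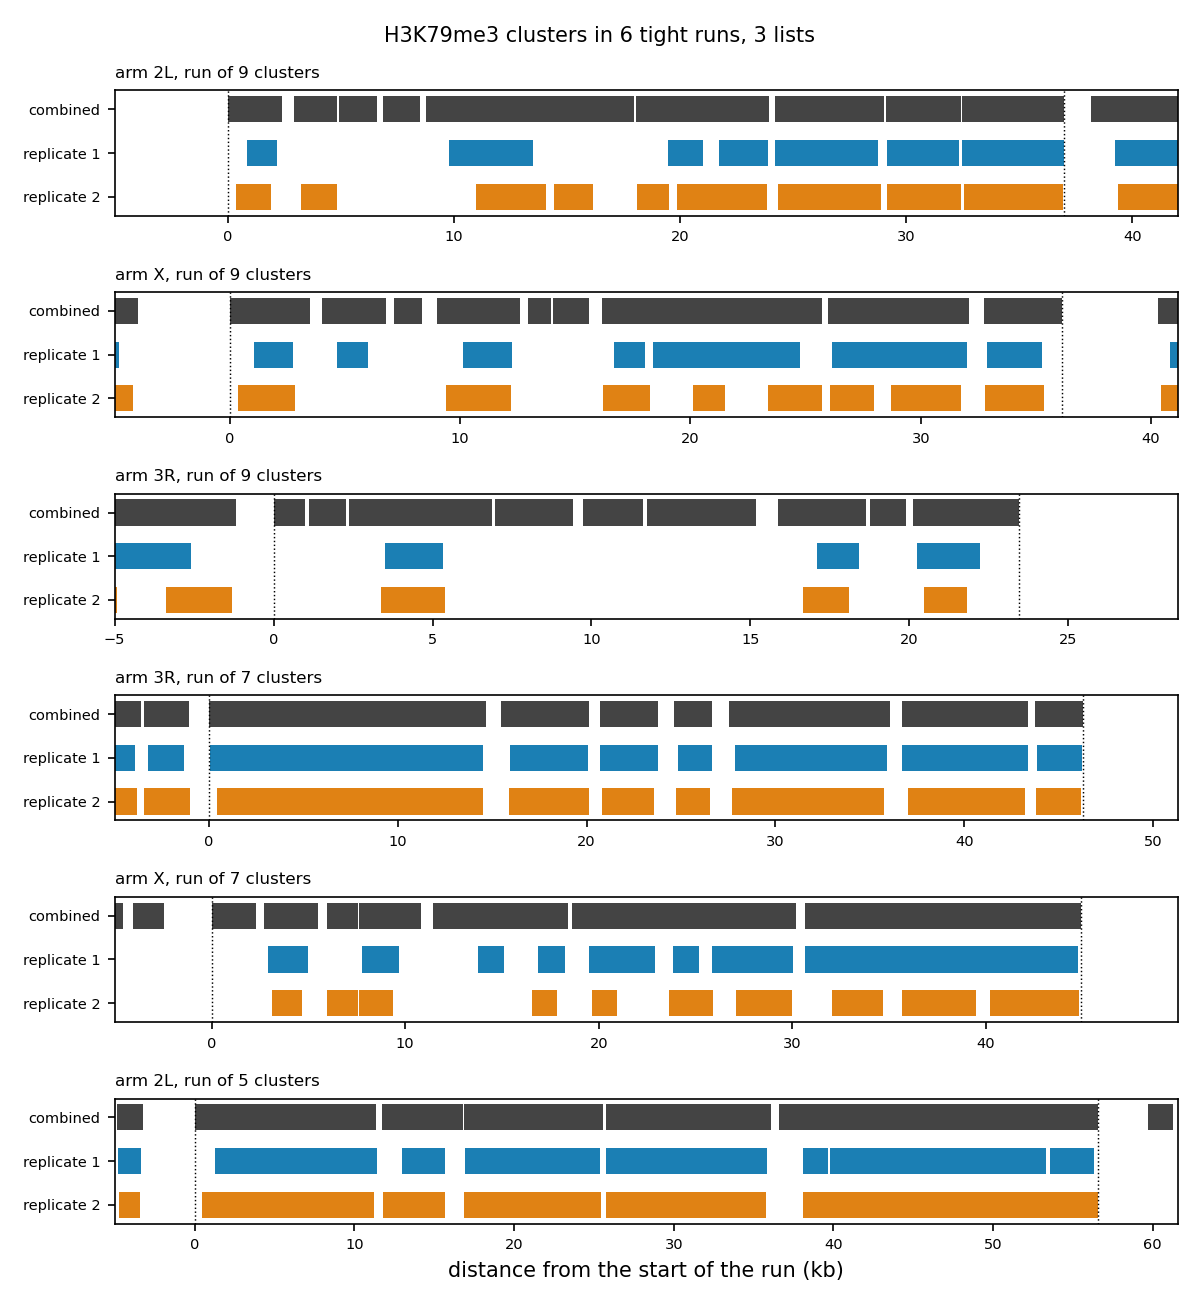
Clusters in 6 named runs in the combined list (grey), replicate 1 (blue) and replicate 2 (orange), against the distance in kb from the first base of the run; dotted lines mark its ends. The 3R run of 7 clusters keeps all 6 gaps in both libraries, and the 3R run of 9 clusters has 3 clusters in each library.

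Outside 2R, the 3 runs with the highest median scores among those with all members called in both libraries held 3 clusters each. The highest median score was 1.79, on 3L from 1772580 to 1805553. Its 3 clusters scored 1.40, 1.79 and 1.83 in the combined list, 1.33, 1.85 and 1.80 in replicate 1, and 1.49, 1.77 and 1.87 in replicate 2. The last of them had the highest score of any member outside 2R. The gaps of 2 and 143 bases measured 148 and 215 bases in replicate 1 and 71 and 269 bases in replicate 2. Both breaks were thus present in each library, between clusters with high scores in all 3 lists. The next highest medians were 1.41 on 3L, from 16572937 to 16584830, and 1.37 on X, from 18530851 to 18554303. Both gaps of each of these were also kept in both libraries. The lowest score of any member outside 2R was 0.0870, in a cluster of 1432 bases at the end of a run of 4 on 3R, from 3737756 to 3739187. Replicate 1 called it with a score of 0.246 and replicate 2 did not call it.

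The rule was next applied to each library list by itself. It gave 328 runs with 1150 clusters in replicate 1 and 359 runs with 1242 clusters in replicate 2, or 19.0% ± 0.57 of the clusters on the large arms (SD, n = 2), against 23.4% in the combined list. Of the library runs, 138 of 328 (42.1%) and 154 of 359 (42.9%) met a combined run. A library run overlapped 135 of the 452 combined runs (29.9%) in replicate 1 and 148 (32.7%) in replicate 2. Runs of both libraries overlapped 81 combined runs (17.9%) and those of neither overlapped 250 (55.3%). Between the libraries, 166 of the 328 runs of replicate 1 (50.6%) met a run of replicate 2, and 167 of the 359 runs of replicate 2 (46.5%) met one of replicate 1.

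Most gaps of the library runs were closed in the combined list. A combined cluster bridged 495 of the 822 gaps of replicate 1 runs (60.2%) and 535 of the 883 gaps of replicate 2 runs (60.6%). The bridged gaps were shorter, with medians of 270 and 265 bases in replicates 1 and 2, against 518 and 542 bases for those the combined list kept. Of the 447 gaps of replicate 1 runs that replicate 2 also kept, 169 (37.8%) were bridged in the combined list. Of the 477 gaps of replicate 2 runs that replicate 1 also kept, 174 (36.5%) were bridged. Of the 1150 clusters in runs of replicate 1, 480 (41.7%) began in a member of a combined run, 262 (22.8%) in a combined cluster wider than 20 kb and 408 (35.5%) in another narrow cluster. In replicate 2 these shares were 41.6%, 23.9% and 34.3% of 1242. The labels and headers do not say how the replicates were put together, and the part of that step in these differences was not tested.

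Runs occurred on every large arm. In the combined list, members made up 24.5% of the clusters on X (interval 22.4 to 26.8), 24.3% on 2L and 22.6% on 2R, and 22.8% each on 3L and 3R. X stood 1.42 points above the autosomal arms, with 24.5% against 23.1% (interval 22.0 to 24.3), and these intervals overlap. In the library lists the distance was larger, and the intervals did not overlap. Replicate 1 had 21.3% on X (interval 19.2 to 23.7) against 17.9% on the autosomal arms (interval 16.9 to 19.0). Replicate 2 had 22.8% on X (interval 20.6 to 25.1) against 18.5% (interval 17.5 to 19.6). Neighbouring clusters are not independent, and the difference was not tested. By length, X held 4.33 runs per Mb in the combined list and the autosomal arms 3.67, and in the libraries 3.57 ± 0.25 against 2.73 ± 0.17 (SD, n = 2). X also had more clusters of any kind per Mb (63.2 against 56.1 in the combined list) and a smaller share wider than 20 kb (2.47% against 4.89%). The part of these in the runs was not tested.

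**Figure D5:**
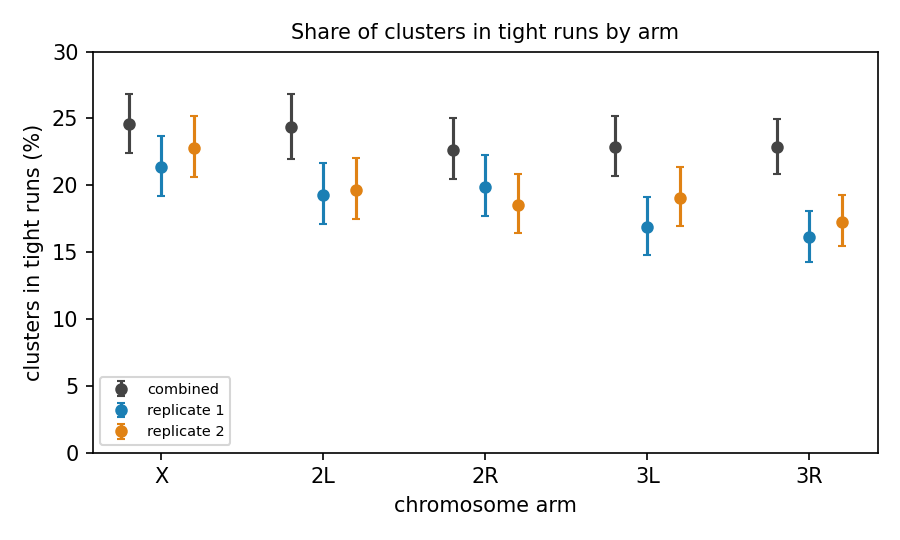
Share of the clusters of each large arm that lie in tight runs, in percent, in the combined list, replicate 1 and replicate 2, with 95% Wilson intervals that cover counting error only. X has the highest share in all 3 lists, with 24.5%, 21.3% and 22.8%, and in the combined list its interval overlaps those of all other arms, while in replicate 1 it lies above those of 3L and 3R and in replicate 2 above that of 3R.

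Along the arms, members were spread widely. In 117 full windows of 1 Mb the median was 13 members (interquartile range 7 to 18), the highest 35, and 4 windows had none. Across these windows, Spearman's rho between members and all clusters was 0.60, which the shared list sets in part. The window with the most members outside 2R lay at 17 to 18 Mb on 3L, where 35 of 72 clusters (48.6%) were in runs of the combined list. In the same window the libraries had 14 of 65 clusters in runs in replicate 1 and 13 of 62 in replicate 2. At 18 to 19 Mb on 2L, 29 of 63 clusters were in runs in the combined list, 26 of 66 in replicate 1 and 23 of 67 in replicate 2. This window was therefore rich in runs in all 3 lists. The highest window of X, at 15 to 16 Mb, had 30 of 79 clusters in runs in the combined list, 16 of 67 in replicate 1 and 24 of 69 in replicate 2. The highest window of 3R, at 1 to 2 Mb, had 27 of 74, 21 of 82 and 20 of 84 in the same lists.

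The surroundings of runs were covered about as much as those of pairs. Clusters covered a median of 39.2% of the 20 kb on each side of a run (interquartile range 23.6 to 55.1). The medians were 38.2% around pairs, 34.9% around single narrow clusters and 50.0% around clusters wider than 20 kb, and the large arms were covered to 34.3% overall. Within 2 Mb of the centromere end of each arm, 72 of 347 clusters (20.7%) were in runs, against 1528 of 6486 (23.6%) elsewhere. There, 40 of the 141 clusters on 3R and 20 of the 69 on X were members, and none of the 53 on 2R.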

How the data were processed

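The deposited files give regions of significant enrichment with FlyBase release 5 coordinates, per the file headers, and 1 score per region, which the authors assigned on an unstated scale. The submitters' processing notes name Bowtie 0.12.7 and give it no role. For the caller, its threshold and the combination of replicates, the sources used here name nothing. Without read counts, depth is unknown.

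Clusters on X, 2L, 2R, 3L and 3R were sorted, gaps measured, and runs found as stated above. Score percentiles are ranks within the large arms of a list. Lists were compared by overlap of at least 1 base, and a library score over a member is the mean of the overlapping clusters. The members and tests were chosen with earlier results of these data known. Runs named have the most clusters, the highest median score or all gaps kept, outside 2R. No test was made, since every list derives from the same libraries. Alternatives were other limits of gap, width and run length, a score filter, each library alone, stricter overlap and comparison within 5 width classes. The run search and the gap classes were tested on simulated maps. No gene is named and no sequence printed, because the gene table used is of another release. Values were computed with scipy 1.17.1, numpy 2.4.6 and pandas 2.3.3 in Python 3.11.15, and drawn with matplotlib 3.10.9.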

Additional observations from a re-analysis of the deposited data

Results flagged for a closer look

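Chromosome 4, small and largely heterochromatic, lies outside the 5 large arms and entered none of the values above. By the same rule it held 9 clusters in 3 runs of 56 clusters in the combined list, 6 in 2 runs of 47 in replicate 1 and 3 in 1 run of 45 in replicate 2. These are 16.1%, 12.8% and 6.67% of its clusters, against 23.4%, 18.6% and 19.4% on the large arms in the same lists. The counts of 9 and 6 are listed here only because chromosome 4 lies outside the main measurement, and no test was made. The run from 1042432 to 1055894 had 3 clusters in all 3 lists, with scores of 0.768 to 0.932 in the combined list, 0.815 to 0.979 in replicate 1 and 0.747 to 0.913 in replicate 2. The run from 672417 to 686819 was also found in replicate 1, and the run from 328296 to 337609 was found in the combined list only.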

How the results depend on the processing

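No paired analysis was possible because no list of an input library was used and no test was made. In the order clusters in runs, runs, gaps kept in both libraries, members called in both, score rank minus other narrow clusters (points), X minus autosomal arms (points) and runs found again in a library, the values were 1600, 452, 42.5%, 62.7%, -5.58, 1.42 and 31.3%. Of 67 alternative values, 19 stayed within the allowed spread, 47 moved and 1 changed sign. Gaps under 500 bases gave 734 clusters, 223 runs, 39.1% kept, -6.97 points of rank and 20.6% found again. Gaps under 2000 bases gave 2964, 733, -4.20 points of rank, 6.31 points for X and 49.7%. A width limit of 10000 bases gave 34.6% kept, 55.8% called, -6.00 points of rank and 25.7% found again. No width limit gave 46.4%, 66.3%, -2.92 points, 0.493 points for X and 36.8%. At least 4 clusters gave 718 clusters, 158 runs, -7.53 points of rank, 0.0889 points for X and 17.4% found again, and at least 2 gave 3360, 1332, -2.81 points, 2.73 points and 53.1%. Clusters at or above the median score gave 313 clusters, 96 runs, 96.8% of gaps kept, 99.4% of members called, 6.48 points of rank (the change of sign), 6.46 points for X and 63.5% found again. The cause was not tested. Requiring the library gap to stay under 1000 bases gave 18.4% kept. Asking for 50% of the member or run to be covered gave 55.9% called and 25.3% found again. Comparison within 5 width classes gave -5.82 points of rank. With each library alone, gaps kept ran from 51.1% to 53.0%, members called from 70.9% to 71.4% and runs found again from 29.9% to 32.7%. The library lists alone gave 1150 and 1242 clusters, 328 and 359 runs, rank differences of -1.42 and -1.28 points and 3.44 and 4.28 points for X. The first 2 shares rise by construction, since a call in 1 library is enough. Depth is unknown from these lists, so whether a member missed by a library was absent or under the caller's limit cannot be told apart.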
